A study of Rattus norvegicus with 138 samples.

Results

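The genes described here are a set of cell cycle and mitosis genes, read from RNA-seq of the tibialis anterior (TA) muscle of rats after volumetric muscle loss (VML), the surgical removal of a piece of muscle that is too large to grow back. The set was given as 48 gene symbols, with no measured value in the rule, and 47 of them had a row in the expression table of 16181 symbols. Cenpe, a kinetochore motor, had no row. All 47 entered the statistical test, which covered 11328 genes.

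Male inbred Lewis rats were used, and the injury was a full-thickness biopsy punch in the middle of 1 TA muscle. The study's methods also name a few Lewis rats carrying GFP, and the labels do not say whether any of them gave RNA. Control muscles (day 0, labelled Sham, called unoperated in the study's text) were 4 muscles of 2 rats. Injured muscles without repair were 3, 8, 4 and 4 at days 3, 7, 14 and 28, and contralateral uninjured muscles of the same kind of rat were 2, 4, 2 and 2. Injured muscles repaired with autologous minced muscle graft (MMG), pieces cut from the excised tissue of the same animal, were 7, 8, 4 and 4, with 2, 6, 2 and 2 contralateral muscles. Rats labelled as running gave 8, 4, 4 and 2 injured muscles without repair and 6, 4, 4 and 2 with graft. The control libraries carry another title prefix than those of operated rats, so that this difference and the operation cannot be told apart in comparisons with control, whereas contralateral muscles share the prefix of the injured ones.

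Levels are TPM, transcript abundances scaled to gene length and to the size of the library. Among the deposited libraries, 13 with 901 to 5712 symbols above 1 TPM were left out, and the libraries kept had 7866 to 10948. A further 9 libraries had labels that contradicted each other and entered no comparison. The remaining 116 libraries stood for 114 muscles of 78 rats in 31 groups. Differences are log2 fold changes on the log2(TPM + 1) scale with their standard error (SE), which understate the change of genes near 0 TPM. A gene was called when limma's adjusted p was under 0.05 and the log2 fold change was beyond 1, and "rose" and "fell" are used of called genes only. A read depth per library was not part of the table, so no counting interval is given.

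A cell that divides first licenses its replication origins by loading the MCM helicase, then copies its DNA, and then condenses and separates the chromosomes on a spindle before it splits. E2F factors switch on the genes of the first steps, and Mybl2 and Foxm1 those of mitosis, many of which carry a CHR element in the promoter. In resting muscle the fibre nuclei do not divide. After injury, satellite cells, invading leukocytes, fibroblasts and endothelial cells are known to do so. Levels were measured in whole muscle, where more cells of a dividing kind and more RNA per cell cannot be told apart.

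The promoters of 3 mitotic and 2 replication members are shown because these genes were among the most strongly changed or are the central helicase subunits, and because the 2 sides differ in how often they carry the letters searched. RefSeq gave a promoter window (GRCr8, from 250 bases before to 50 bases after the gene start) for 39 of the 48 genes. The first 3 lines are Ccnb2 (chr8:79981659-79981778, minus strand), Cdk1 (chr20:19265173-19265292, plus strand) and Tacc3 (chr14:81289699-81289818, minus strand), and the last 2 are Mcm2 (chr4:122918095-122918214, minus strand) and Mcm5 (chr19:13488693-13488812, plus strand). Each line holds the 120 bases before the gene start, 5′ to 3′, with matches to the searched letters in capitals.
Ccnb2: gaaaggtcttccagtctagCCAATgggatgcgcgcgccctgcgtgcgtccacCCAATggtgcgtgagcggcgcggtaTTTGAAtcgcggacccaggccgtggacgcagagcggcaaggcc
Cdk1: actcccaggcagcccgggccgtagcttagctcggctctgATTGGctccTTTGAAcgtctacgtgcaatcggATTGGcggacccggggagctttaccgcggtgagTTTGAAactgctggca
Tacc3: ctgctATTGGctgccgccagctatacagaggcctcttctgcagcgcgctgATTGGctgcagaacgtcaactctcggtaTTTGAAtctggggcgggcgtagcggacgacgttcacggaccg
Mcm2: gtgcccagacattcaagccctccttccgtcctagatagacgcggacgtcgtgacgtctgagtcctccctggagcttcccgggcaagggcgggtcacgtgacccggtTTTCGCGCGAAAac
Mcm5: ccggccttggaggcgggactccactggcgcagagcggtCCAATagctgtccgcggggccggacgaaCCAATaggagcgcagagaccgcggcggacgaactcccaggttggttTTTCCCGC

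The letters searched, on both strands, were TTTGAA and TTCGAA for the CHR element, CCAAT for the CCAAT box (ATTGG on the other strand), and TTTGGCGC, TTTCCCGC, TTTGCCGC and TTTCGCGC for an E2F site. CHR letters were in the windows of 18 of 27 mitotic members (66.7%) and 3 of 11 replication members (27.3%), against 19.5% of 27457 windows of all genes. E2F letters had the opposite distribution, with 7 of 11 replication members (63.6%) and 1 of 27 mitotic members (3.7%), against 2.25% of all windows. CCAAT letters were in 28 of 39 members (71.8%) and 37.7% of all windows, and CHR and CCAAT letters occurred together in 14 of 27 mitotic members (51.9%) and 7.83% of all windows. In the printed stretches CHR letters began at -43 in Ccnb2, at -72 and -16 in Cdk1 and at -42 in Tacc3, and E2F letters at -14 and -10, overlapping, in Mcm2 and at -8 in Mcm5. A match of letters is a description of the window and not evidence of binding.

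Injured muscle without repair was compared with control to ask how far the division programme was raised and for how long. Nearly the whole set rose by day 3 and went down again with time. At day 3, 46 of 47 members rose and 0 fell (48.3% and 4.24% of all genes tested), and at day 7 42 rose and 1 fell (45.6% and 2.42%). At day 14 26 rose and 1 fell (25% and 0.547%), and at day 28 8 rose and 1 fell (21.1% and 0.212%). The median log2 fold change of the members was 3.63, 2.15, 1.12 and 0.61 at the 4 days, and that of all genes tested 0.96, 0.91, 0.53 and 0.52. On this scale the share of members called at day 28 and their median were near those of all genes. With a pseudocount of 0.1 TPM in place of 1, which weighs changes near 0 TPM more, 35 members rose and 1 fell at day 28, against 37.3% of all genes rising, with medians of 1.56 and 0.72, so that the day 28 reading depends on the pseudocount. The summed level of the members was 89.73 to 172.7 TPM in control, 1013 to 1419 TPM at day 3, 340.7 to 605.9 TPM at day 7, 215.3 to 261.7 TPM at day 14 and 183.8 to 233.2 TPM at day 28, so that the sums did not overlap with control at any day.

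**Figure D1:**
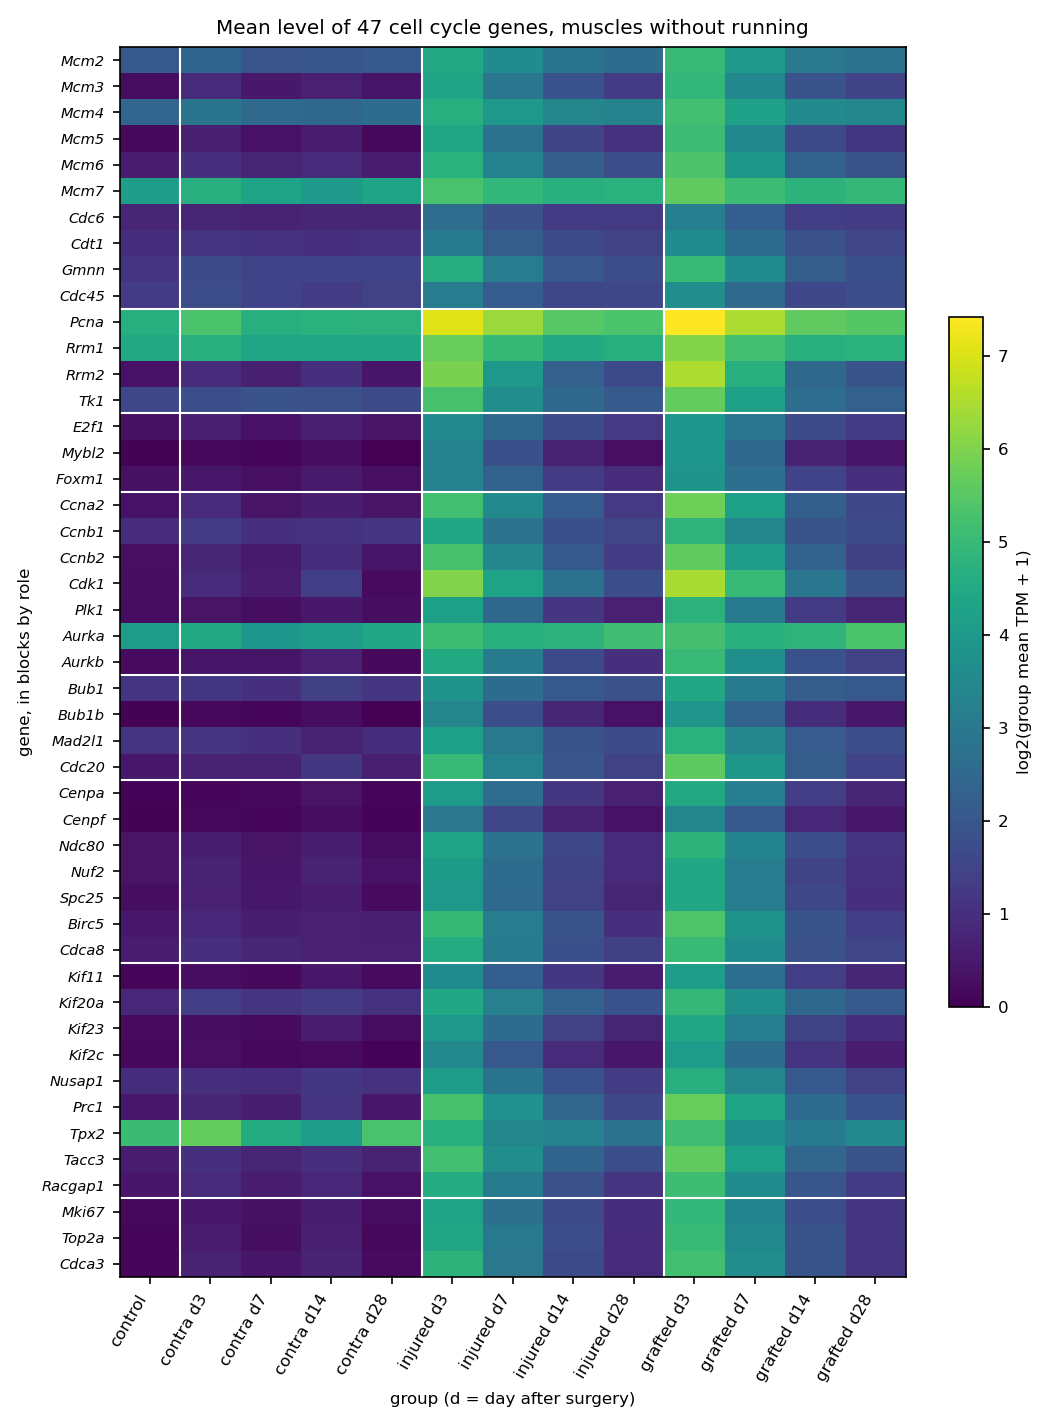
Heat map of log2(group mean TPM + 1) for the 47 genes (rows, in blocks by role) in control, contralateral, injured and grafted groups without running (columns, by day). Most rows are dark in control and contralateral muscle and brightest at day 3 after injury; Pcna, Mcm7, Rrm1, Aurka and Tpx2 are bright in every column.

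Most members were barely present in control muscle. The mean was under 1 TPM in control for 35 of them, and each control muscle had 9 to 16 members above 1 TPM. All 47 were above 1 TPM in each of the 3 injured muscles at day 3, 42 to 43 at day 14 and 28 to 38 at day 28. The 12 members with a control mean of at least 1 TPM were mostly replication genes, with the mitotic Aurka, Tpx2, Bub1 and Mad2l1 beside them.

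Scaling affected how many members were called and left most directions as they were. After scaling by median-of-ratios size factors, which set the typical gene equal between libraries, the median of all genes against control came to 0.31, 0.32, 0.20 and 0.20. Members then counted 43 higher and 1 lower, 36 and 1, 25 and 1, and 6 and 1 at the 4 days, with medians of 3.16, 1.84, 1.09 and 0.48. Of all calls against control, 91.9%, 95.0%, 97.9% and 99.0% were higher in TPM and 69.8%, 73.2%, 86.6% and 89.7% after this scaling. The gap between members and the typical gene was therefore present on both scales at days 3, 7 and 14.

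The 10 licensing genes mark and open replication origins. All 10 rose at day 3 (median log2 fold change 2.39), 8 at day 7 (1.57), 4 at day 14 (0.85) and 2 at day 28 (0.61). Of all genes tested 48.3%, 45.6%, 25% and 21.1% rose at these days, so that the licensing count at day 28 was near the share of all genes. The same shares stand beside the counts of the other roles below. Mcm2, a subunit of the helicase ring, measured 2.18, 3.01, 3.61 and 3.63 TPM in control and 16.93, 21.91 and 24.45 TPM at day 3. It was 7.73 to 14.05 TPM at day 7 (median 12.05), 5.44 to 6.82 TPM at day 14 and 4.48 to 5.82 TPM at day 28. Every injured muscle was above every control muscle at all 4 days, and Mcm2 rose at day 3 (2.43 ± 0.175, limma adjusted p = 8.05e-23) and day 7 (1.54 ± 0.14, adjusted p = 1.79e-17), with 0.82 and 0.59 at the later days.

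Mcm5, another subunit of the ring, started from almost nothing. It measured 0.06, 0.11, 0.16 and 0.27 TPM in control and 17.98, 19.06 and 23.49 TPM at day 3. The values were 3.43 to 8.70 TPM at day 7 (median 6.52), 1.38, 1.86, 2.01 and 2.24 TPM at day 14 and 0.81, 0.85, 1.00 and 1.60 TPM at day 28. Mcm5 rose by 4.20 ± 0.252 at day 3 (limma adjusted p = 1.9e-27), by 2.54 ± 0.202 at day 7 and by 1.31 ± 0.233 at day 14 (adjusted p = 7.21e-07), and it was 0.83 ± 0.233 higher at day 28, which fell short of the fold limit.

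Subunits of one ring thus differed in how far they moved. The day 3 fold changes were 4.07 for Mcm3, 4.15 for Mcm6, 2.35 for Mcm4 and 1.15 for Mcm7. Mcm7 had a control mean of 16.69 TPM, against 0.1825 TPM for Mcm3, and reached 37.91 TPM, so that the ring subunits were closer in level at day 3 than in control. The loading factors Cdc6 and Cdt1 rose by 1.87 and 2.12, Cdc45, which activates the helicase, by 1.87, and Gmnn, the inhibitor of Cdt1, by 3.48. At day 28 Mcm3 (1.07) and Mcm6 (1.18) were the licensing genes still called.

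The 4 DNA synthesis genes supply nucleotides or hold the polymerase on DNA, and all rose at day 3 (median 3.01). Rrm2, the regulated subunit of ribonucleotide reductase, measured 0.26, 0.27, 0.31 and 0.35 TPM in control and 48.78, 51.03 and 80.06 TPM at day 3. It went to 7.28 to 21.52 TPM at day 7 (median 16.65), 2.77 to 4.46 TPM at day 14 and 1.66, 1.89, 2.02 and 2.93 TPM at day 28. No control and injured muscle overlapped, and Rrm2 was called at all 4 days (5.52 ± 0.278, 3.48 ± 0.223, 1.87 ± 0.258 and 1.25 ± 0.258, the last with a limma adjusted p of 1.51e-05). Rrm1, the other subunit of the same enzyme, went from a control mean of 21.38 TPM to 50.41 TPM at day 3 (1.21 ± 0.116) and was 22.40 TPM at day 14.

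Pcna, the sliding clamp of the polymerase, was high in resting muscle already. It measured 17.74, 25.74, 26.77 and 29.13 TPM in control, and 118.5, 121.2 and 161.5 TPM at day 3. At day 7 it was 67.82 to 90.41 TPM (median 75.47), at day 14 40.70 to 47.90 TPM and at day 28 35.11, 36.86, 38.20 and 45.97 TPM. All injured muscles remained above all controls, with log2 fold changes of 2.39 ± 0.139, 1.63 ± 0.111, 0.83 ± 0.128 and 0.65 ± 0.128, of which the first 2 were called. Tk1, which salvages thymidine, rose by 3.63 at day 3 and 1.96 at day 7.

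All 3 transcription factors rose at days 3 and 7. E2f1, which drives entry into S phase, measured 0.16, 0.18, 0.34 and 0.36 TPM in control and 7.96, 10.1 and 14.08 TPM at day 3. It was 3.01 to 5.78 TPM at day 7 (median 5.405), 1.78 to 2.89 TPM at day 14 and 1.32 to 1.42 TPM at day 28. The log2 fold changes of E2f1 were 3.19 ± 0.19, 2.15 ± 0.152, 1.39 ± 0.176 and 0.91 ± 0.176, called at the first 3 days. Foxm1, which drives G2 and M phase genes, measured 0.12, 0.24, 0.31 and 0.32 TPM in control and 7.69, 9.33 and 9.56 TPM at day 3, and rose by 2.98 ± 0.188 and 1.95 ± 0.151 at days 3 and 7 (limma adjusted p = 3.68e-26 and 3.83e-21). Mybl2, which acts with the MuvB core on the same genes, had the lowest control values of the 3, at 0 to 0.04 TPM, and measured 6.88, 7.93 and 11.64 TPM at day 3 and 0.16 to 0.34 TPM at day 28.

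The cyclins and mitotic kinases included Cdk1, the gene with the largest log2 fold change. All 7 rose at day 3 (median 4.28), 6 at day 7 (2.71), 4 at day 14 (1.44) and 2 at day 28 (0.86). Cdk1, the kinase that starts mitosis, measured 0.13, 0.14, 0.27 and 0.29 TPM in control and 52.55, 60.33 and 77.44 TPM at day 3. It then measured 8.45 to 28.41 TPM at day 7 (median 21.63), 5.04 to 6.44 TPM at day 14 and 1.65, 1.79, 2.43 and 3.97 TPM at day 28. Cdk1 had the largest rise of the set at each day on the log2(TPM + 1) scale, at 5.72 ± 0.285, 3.94 ± 0.229, 2.48 ± 0.264 and 1.48 ± 0.264 (limma adjusted p = 2.1e-32, 2.03e-28, 9.62e-14 and 1.05e-06). In the ratio of mean TPM at day 3 to control, Mybl2 (320.6), Bub1b (315.3) and Cenpa (308.8) were above Cdk1 (305.7).

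The cyclin partners of Cdk1 had smaller fold changes than it. Ccna2 measured 0.08, 0.27, 0.29 and 0.53 TPM in control and 30.85, 36.26 and 38.99 TPM at day 3, and it was called at days 3, 7 and 14 (4.82 ± 0.24, 3.08 ± 0.192 and 1.80 ± 0.222). Ccnb1 measured 0.26, 0.78, 1.17 and 1.5 TPM in control and 16.02, 19.41 and 25.51 TPM at day 3, and it was called at days 3 and 7 (3.49 ± 0.2 and 1.88 ± 0.16). Ccnb2, whose control values were 0.10 to 0.51 TPM, rose by 4.95, 3.06 and 1.76 and missed the fold limit at day 28 with 0.99 ± 0.236 (adjusted p = 0.000161).

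Plk1, which drives entry into and exit from mitosis, measured 0.10, 0.13, 0.22 and 0.31 TPM in control and 14.41, 15.27 and 22.64 TPM at day 3. It rose by 3.93 ± 0.24 and 2.15 ± 0.193 at days 3 and 7 and was 0.40 to 0.98 TPM at day 28, where the difference did not pass the test (0.42 ± 0.222, limma adjusted p = 0.0846). Aurkb, the kinase of the chromosomal passenger complex, measured 0.11, 0.14, 0.16 and 0.25 TPM in control and 18.09, 21.63 and 25.95 TPM at day 3, and it rose at days 3, 7 and 14 (4.28 ± 0.258, 2.71 ± 0.207 and 1.44 ± 0.239). Aurka, the kinase of the spindle poles, behaved in another way and is described below with Tpx2.

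The genes that build and guard the kinetochore changed with the cyclins. The 4 checkpoint genes all rose at days 3 and 7 (medians 3.23 and 1.76), led on the log2(TPM + 1) scale by Cdc20, the activator of the anaphase promoting complex (4.50 and 2.71). Bub1b, a checkpoint kinase, was at 0 to 0.06 TPM in control and at 8.72, 9.60 and 10.06 TPM at day 3. Its ratio of mean TPM at day 3 to control was 315.3, against 77.88 for Cdc20. All 7 kinetochore and passenger genes in the table rose at days 3 and 7 (3.92 and 2.37) and 6 rose at day 14 (1.16). Among them Cenpa, the histone H3 variant of centromeres, had 0 to 0.08 TPM in control and 13.46, 14.90 and 20.28 TPM at day 3. Birc5, a subunit of the passenger complex, had the largest log2 fold change (4.46 ± 0.274). The ratio of mean TPM at day 3 to control was 75.23 for Birc5 and 308.8 for Cenpa. At day 28 none of these genes was called by limma, and all 4 checkpoint genes and 6 of the 7 kinetochore genes had an unadjusted p under 0.05, as did 69.4% of all genes tested, in the higher direction.

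Of the 9 spindle and cytokinesis genes 8 rose at day 3 (median of all 9 3.61) and at day 7 (2.31), and 6 at day 14 (1.21). Prc1, which bundles the midzone microtubules, and Tacc3, which binds spindle microtubules, were the highest on the log2(TPM + 1) scale, at 4.78 and 4.63 at day 3 and still at 1.11 ± 0.207 and 1.22 ± 0.208 at day 28 (limma adjusted p = 2.23e-06 and 3.9e-07). In the ratio of mean TPM at day 3 to control, Kif11 (145.9) was above Prc1 (96.89) and Tacc3 (71.73). Kif20a, a kinesin of cytokinesis, was also called at day 28 (1.04 ± 0.185). Tpx2 was the exception in this group.

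Mki67 and Top2a, markers often used for dividing cells, moved like the kinases. Mki67, a coat of mitotic chromosomes, measured 0.05, 0.11, 0.16 and 0.21 TPM in control and 17.12, 17.43 and 20.05 TPM at day 3. It was 3.44 to 7.92 TPM at day 7 (median 6.39), 1.74, 2.05, 2.22 and 2.34 TPM at day 14 and 0.69, 0.81, 0.98 and 1.43 TPM at day 28. Mki67 rose by 4.08 ± 0.217, 2.52 ± 0.174 and 1.45 ± 0.201 at days 3, 7 and 14, and the 0.79 ± 0.201 at day 28 was above the error (limma adjusted p = 0.000358) and under the fold limit. Top2a, the topoisomerase that untangles sister chromatids, measured 0.03, 0.09, 0.12 and 0.13 TPM in control and 17.60, 21.27 and 21.82 TPM at day 3, with 4.28 ± 0.22, 2.82 ± 0.177, 1.66 ± 0.204 and 0.80 ± 0.204.

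**Figure D2:**
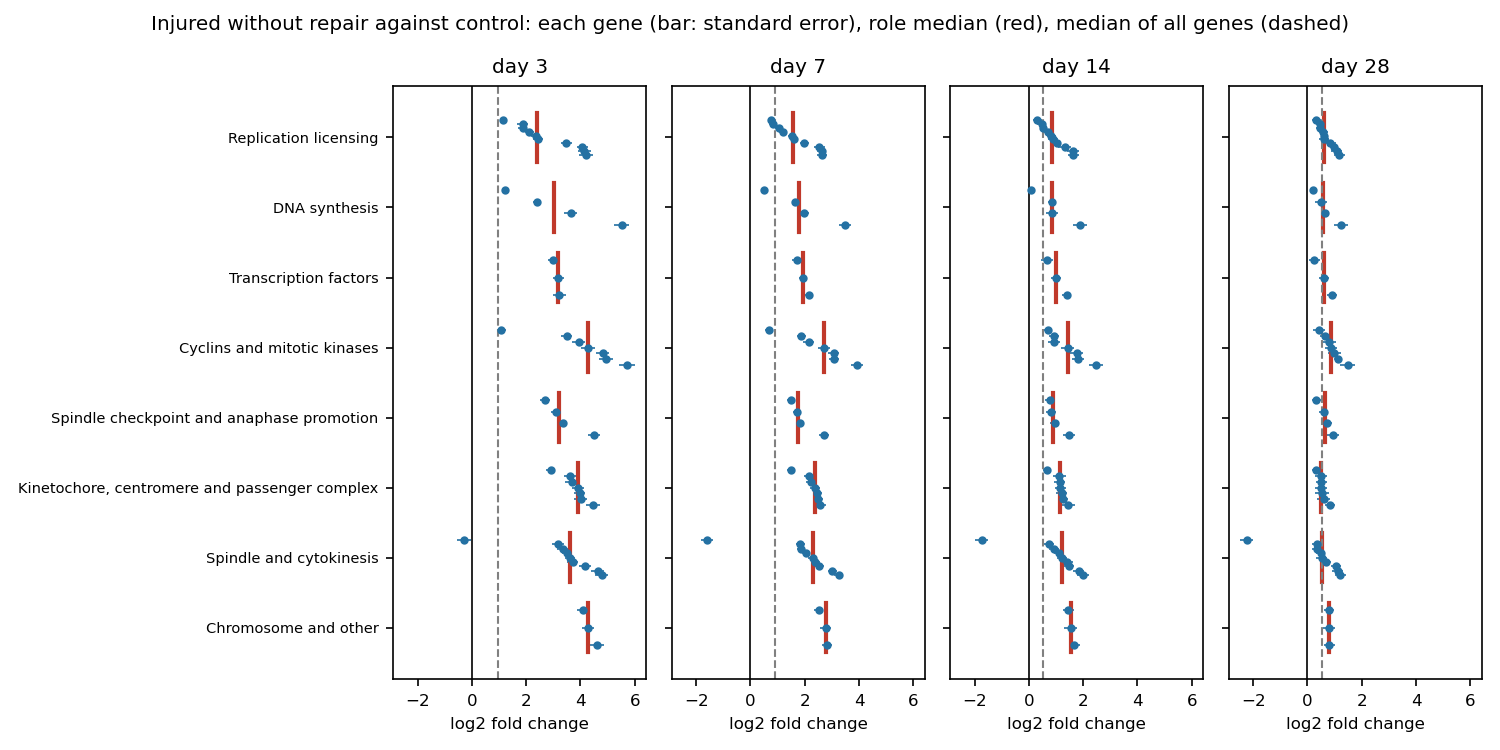
Log2 fold change of each gene in injured muscle without repair against control, by role and day (points with standard error), with the median of each role (red) and of all genes tested (dashed). At day 3 every role median, from 2.39 to 4.28, lies right of the dashed line at 0.96; at day 28 the role medians lie between 0.51 and 0.86, beside 0.52, and 1 gene, Tpx2, is left of 0 on each day.

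The time course was followed in the injured muscles themselves. From day 3 to day 7, 39 members fell and 0 rose (5.35% of all genes fell), from day 7 to day 14 26 fell (6.1%) and from day 14 to day 28 1 fell (0.353%). The members' median differences were -1.498, -1.05 and -0.49, and those of all genes -0.06, -0.40 and -0.01. Rrm2 fell the most in the first 2 steps (-2.04 ± 0.247 and -1.60 ± 0.223, limma adjusted p = 1.19e-10 and 8.8e-09), followed in the first by Birc5 (-1.90) and Ccnb2 (-1.88) and in the second by Cdk1 (-1.46) and Cenpa (-1.36). Cdk1 was the gene called in the last step (-1.002 ± 0.264, adjusted p = 0.0327), followed by Ccna2 (-0.94) and Birc5 (-0.90), and Aurka (0.41), Rrm1 (0.14) and Mcm7 (0.10) were at the other end. This last count was 14 with a pseudocount of 0.1 TPM, 2 without day 28 replicate 3 and 0 without any other of the 8 muscles. The second step depended on the scaling: with size factors 4 members fell from day 7 to day 14, and the calls of all genes were 52.0% higher in place of 10.6%.

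The 8 members that were not called between days 3 and 7 were Mcm2, Mcm4, Mcm7, Cdc6, Cdt1, Pcna, Rrm1 and Aurka. Their differences ran from -0.93 for Cdt1 to -0.38 for Mcm7, and each was above its error (limma adjusted p = 0.0161 at most). All but Aurka belong to the replication genes.

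The mean level was highest at day 3 among the injured days for 46 of 47 members, and for 42 it went down at every step. Among the 46 members with a day 3 mean above control, the share of the day 3 rise in mean TPM that was left was 31.5% at day 7 (median, 23.8% to 57.4%), 9.997% at day 14 (3.54% to 56.9%) and 4.31% at day 28 (2.13% to 105.3%). The low end at day 28 was Birc5 (2.13%), Mybl2 (2.25%) and Plk1 (2.39%). The high end was Aurka (105.3%), Mcm7 (42.8%) and Mcm4 (23.04%). Cdk1 (3.56%) and Mki67 (4.68%) were near the median. Replication genes lay on both sides of it, with Pcna (13.03%) and Mcm2 (11.2%) above and Rrm2 (3.06%) and Tk1 (3.62%) below.

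**Figure D3:**
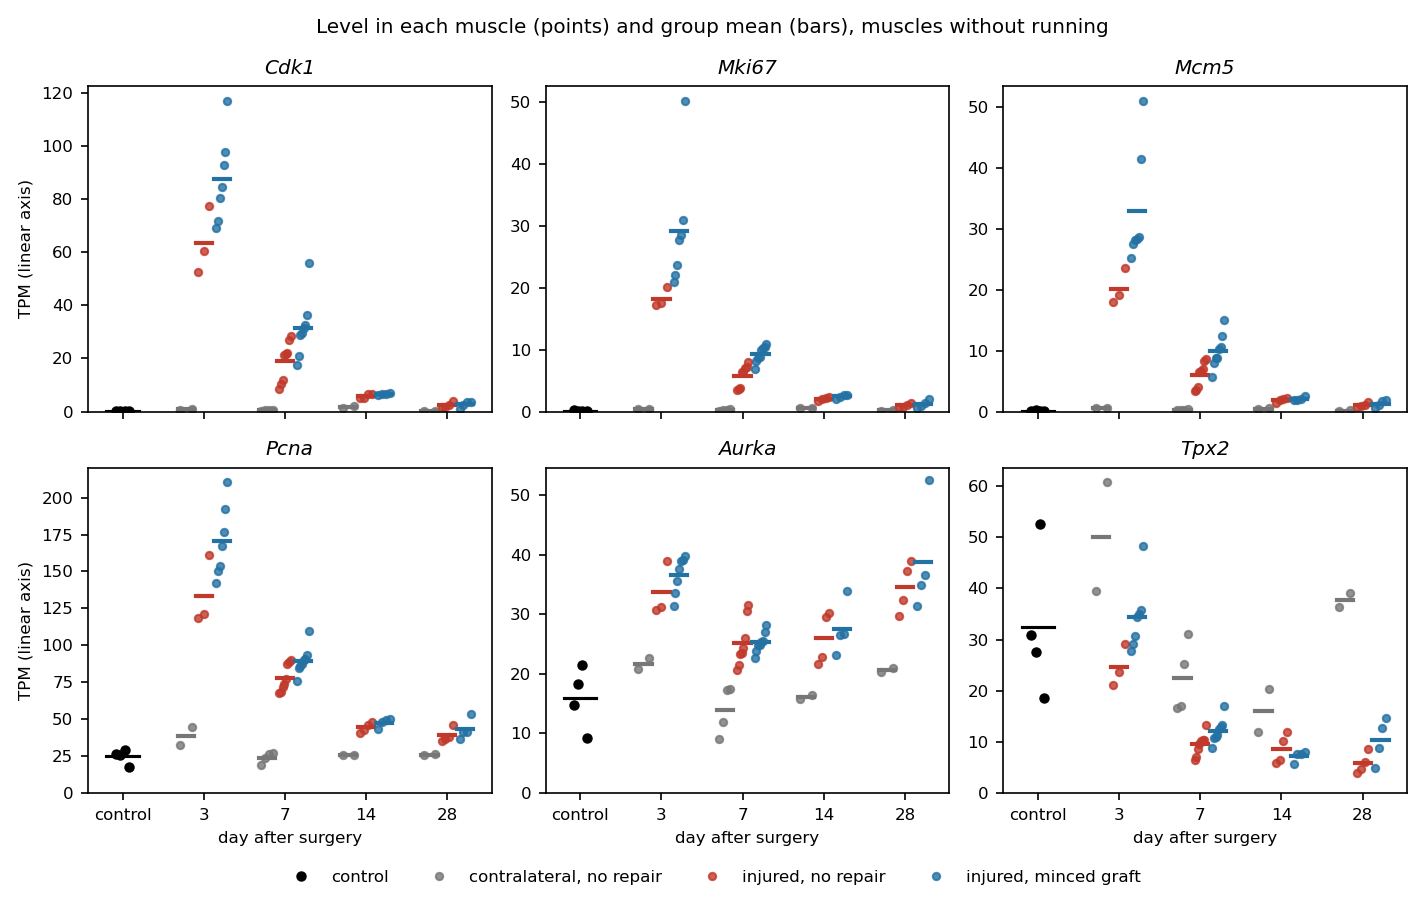
TPM of Cdk1, Mki67, Mcm5, Pcna, Aurka and Tpx2 in each muscle without running (points, linear axes from 0) with group means (bars), for control and for contralateral, injured and grafted muscle by day. The first 4 genes peak at day 3 and come down, Aurka ends at 29.8 to 38.99 TPM at day 28 in injured muscle without repair, and Tpx2 ends at 3.95 to 8.57 TPM, under every control muscle.

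Aurka and Tpx2, the kinase of the spindle poles and the protein that activates it there, went separate ways from the set and from each other. Aurka measured 9.26, 14.73, 18.24 and 21.51 TPM in control, 30.78, 31.25 and 39.01 TPM at day 3, 20.69 to 31.50 TPM at day 7 (median 23.97), 21.63 to 30.14 TPM at day 14 and 29.80, 32.45, 37.23 and 38.99 TPM at day 28. The day 28 values overlapped with those at day 3 and not with control. Aurka was called at day 3 (1.08 ± 0.16, limma adjusted p = 2.91e-09) and day 28 (1.12 ± 0.148, adjusted p = 3.77e-10) and had 0.67 and 0.72 between. After scaling with size factors these values were 0.25, -0.09, 0.28 and 0.67, so that the calls were lost and the day 7 value changed sign.

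Tpx2 was the one member to fall. It measured 18.55, 27.62, 30.82 and 52.67 TPM in control and 21.13, 23.67 and 29.08 TPM at day 3, within the control range. It then measured 6.41 to 13.30 TPM at day 7 (median 9.975), 5.93, 6.53, 10.18 and 11.96 TPM at day 14 and 3.95, 4.70, 6.17 and 8.57 TPM at day 28. From day 7 on every injured muscle was below every control muscle, and Tpx2 fell by 1.60, 1.75 and 2.24 on the log2 scale (limma adjusted p = 3.9e-11, 8.2e-10 and 2.28e-13), with -0.30 ± 0.259 at day 3 (adjusted p = 0.276). With size factors Tpx2 was also called at day 3 (-1.15) and was -2.37, -2.20 and -2.71 thereafter.

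The drop of Tpx2 was also seen against contralateral muscle. The contralateral muscles measured 39.50 and 60.79 TPM at day 3, 16.60, 17.04, 25.21 and 31.14 TPM at day 7, 11.87 and 20.26 TPM at day 14 and 36.38 and 39.19 TPM at day 28. At day 3 the 3 injured muscles lay below both contralateral muscles (-0.98 ± 0.31, limma adjusted p = 0.00373), just short of the fold limit. Tpx2 was -1.14 ± 0.208 at day 7 and -2.55 ± 0.294 at day 28 (limma adjusted p = 5.8e-07 and 3.1e-11), and the latter was the lowest value of the 11328 genes tested. At day 14 the groups overlapped (-0.83 ± 0.294, not called). Between uninjured muscles Tpx2 itself ranged from 11.87 to 60.79 TPM over the control and contralateral muscles just given.

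The summed level of 8 adult fast fibre markers was 151000 to 194300 TPM in control, 30000 to 39830 TPM at day 3, 39820 to 91490 TPM at day 7 and 116900 to 142100 TPM at day 28. The fibre markers were lowest at day 3, and at day 14 they summed to 114400 to 141100 TPM, close to day 28. The part of the fibres in the Tpx2 levels was not tested.

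Contralateral muscle was then used as the reference, since it comes from operated rats of the same day. Members counted 43 higher and 0 lower at day 3 (32.3% and 5.92% of all genes), 42 and 1 at day 7 (45.3% and 2.01%), 15 and 0 at day 14 (20.9% and 0.168%) and 5 and 1 at day 28 (13.1% and 0.212%). The members' medians were 3.32, 2.07, 0.83 and 0.63, and those of all genes 0.54, 0.91, 0.50 and 0.38. Among the genes that were higher, Cdk1 had the largest difference at day 3 (5.1), day 7 (3.66) and day 28 (1.53), and Ccna2 at day 14 (1.52). The 5 genes still higher at day 28 were Cdk1, Mcm6 (1.18), Rrm2 (1.17), Prc1 (1.10) and Tacc3 (1.07), all of which were called against control too. With a pseudocount of 0.1 TPM the members counted 35 and 0 at day 14 (33.7% of all genes higher) and 31 and 1 at day 28 (24.4%). Of all calls, 84.5%, 95.8%, 99.2% and 98.4% were higher in TPM and 68.3%, 70.6%, 87.7% and 90.8% with size factors, where the members counted 43 and 1, 35 and 1, 6 and 1, and 4 and 1.

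The same direction was present rat by rat. In the 10 rats with neither repair nor running that gave both muscles, 45 or 46 of the 47 members were higher in the injured muscle, as were 66.2% to 90.1% of all genes tested. The median difference of the members within a rat was 3.516 and 3.288 at day 3, 1.448 to 2.134 in 4 rats at day 7, 0.732 and 0.745 at day 14 and 0.514 and 0.497 at day 28, while that of all genes in the same rats was 0.421 and 0.74, 0.628 to 1.084, 0.378 and 0.483, and 0.329 and 0.339. The 12 rats with graft and no running gave 44 to 47 members higher, with medians from 4.186 in a rat at day 3 to 0.444 in a rat at day 28, where all genes had 0.753 and 0.322.

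Contralateral muscle itself was close to control for these genes. With limma 0 members were called at days 3, 7 and 28, and Cdk1 alone at day 14 (1.08 ± 0.323, adjusted p = 0.0471), when 6.43%, 0.803%, 0.185% and, at day 14, 0.715% of all genes were called in either direction. At an unadjusted p under 0.05, 11 members were higher at day 3, 1 at day 7, 8 at day 14 and 1 at day 28, beside 59.8%, 10.5%, 7.98% and 11.1% of all genes. The member share was thus below that of all genes at day 3, when 9 members passed the adjusted p at any fold (53.7% of all genes). Cdk1 measured 1.16 and 2.02 TPM in the 2 contralateral muscles at day 14, above all 4 controls. With a pseudocount of 0.1 TPM 13, 2, 18 and 0 members were higher (19.2%, 3.26%, 4.1% and 2.16% of all genes). The Cdk1 call was absent when any 1 of these 6 muscles was left out, and without control replicate 4 the 1 member called was a lower one. The largest differences that were not called were Tpx2 (0.68), Mcm3 (0.68) and Cdk1 (0.65) at day 3, Gmnn (0.38) at day 7, Prc1 and Cdc20 (0.72 each) at day 14 and Aurka (0.41) at day 28, and the smallest were those of Tpx2 at days 7 (-0.46) and 14 (-0.92).

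**Figure D4:**
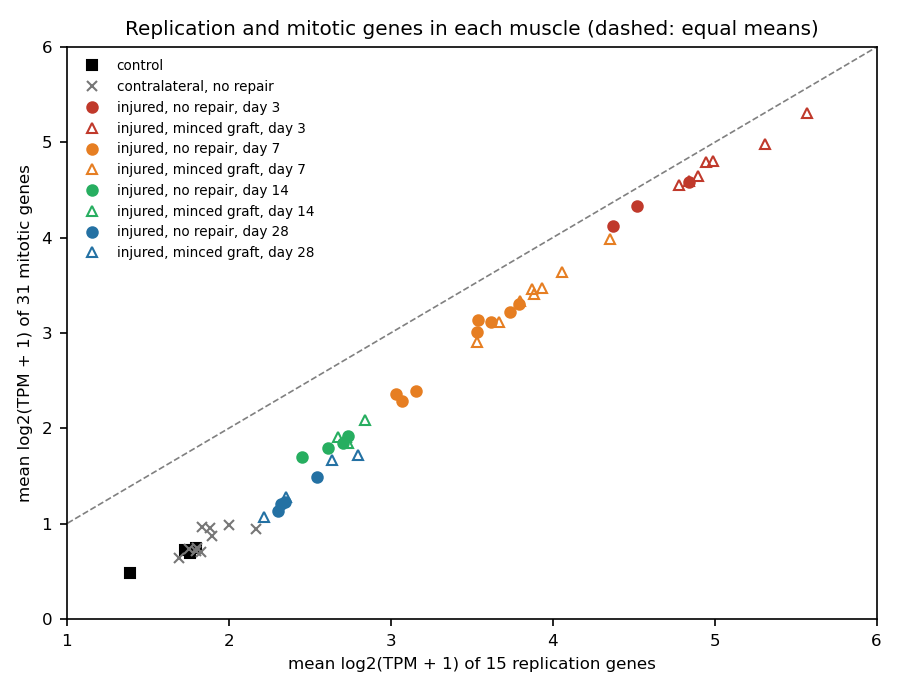
Mean log2(TPM + 1) of 31 mitotic genes (y axis) against that of 15 replication genes (x axis) in each muscle without running, with the line of equal means (dashed). Control and contralateral muscles lie about 1 below the line, the day 3 muscles come within 0.15 to 0.33 of it, and the day 28 muscles are back at about 1 below.

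The balance between the 2 sides of the programme changed with time. Replication genes were taken as licensing, DNA synthesis and E2f1 (15 genes), and mitotic genes as all others but Mki67 (31 genes). The mitotic mean minus the replication mean, in log2(TPM + 1), was -1.01 ± 0.074 in control (SD, n = 4). In injured muscle it was -0.23 ± 0.036 at day 3 (n = 3), -0.58 ± 0.14 at day 7 (n = 8), -0.81 ± 0.044 at day 14 (n = 4) and -1.12 ± 0.048 at day 28 (n = 4). Each injured muscle at days 3, 7 and 14 was above all 4 controls, which lay between -1.07 and -0.91, and at day 28 the ranges overlapped. Contralateral muscle had -1.12, -1.07, -0.90 and -1.05. Most of the mitotic genes were near 0 TPM in control, where the scale compresses fold changes, so the differences understate their rise.

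Leukocyte and stromal markers moved on the same days as the division genes. The summed level of 8 macrophage and monocyte markers was 14.43 to 34.40 TPM in control, 4300 to 5645 TPM at day 3, 576.4 to 2766 TPM at day 7, 380.9 to 455.9 TPM at day 14 and 217.0 to 748.1 TPM at day 28. Ptprc, carried by all leukocytes, was 0.08 to 0.64 TPM, 37.86 to 42.53 TPM, 9.45 to 30.05 TPM, 5.1 to 7.11 TPM and 3.05 to 7.28 TPM. The 6 lymphocyte markers present summed to 2.36 to 3.62 TPM in control, with the B cell gene Ms4a1 at 0, and to 195.3 to 243.7 TPM at day 3. The 7 fibroblast markers summed to 57.58 to 198.2 TPM in control and peaked at day 7, with 3991 to 11610 TPM against 2541 to 4429 TPM at day 3. The 8 myogenic markers, Des among them, summed to 3676 to 5600 TPM in control and 4335 to 4739 TPM at day 3. Such a sum follows its most abundant genes and does not show how the others moved. The study reports increases of Pax7, Myog, Myh3 and myomaker over its time course. Endothelial markers had a median sum of 160.4 TPM at day 3 and 228.5 TPM at day 7, pericyte and smooth muscle markers 390.0 and 630.0 TPM, and neutrophil markers 188.5 and 44.2 TPM. The macrophage, neutrophil and leukocyte markers therefore shared the day 3 peak of the division genes. The fibroblast, endothelial and pericyte markers did not, and the part of any of these cells in the result was not tested.

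Minced graft repair was compared with no repair to ask whether division genes differ when muscle pieces are put back. Against its own contralateral muscle the grafted injury also had fewer members called with time, with 44 members higher and 0 lower at day 3 (37.2% and 6.8% of all genes), 42 and 1 at day 7 (42.9% and 3.35%), 27 and 1 at day 14 (25.6% and 0.53%) and 9 and 1 at day 28 (18.8% and 0.3%). The medians were 3.94, 2.38, 1.07 and 0.74, beside 0.66, 0.85, 0.58 and 0.49 for all genes. Cdk1 was again the highest at each day (5.89, 4.11, 2.21 and 1.40), with Rrm2 and Ccna2 next at days 3 and 7 and Prc1 next at days 14 and 28. Aurka (0.53 and 0.41) and Mcm7 (0.89 and 0.48) were the lowest after Tpx2 at days 3 and 7, and Rrm1 and Cdc45 at days 14 and 28. The share of higher calls among all genes was 84.6%, 92.7%, 98% and 98.4% in TPM and 66.1%, 71%, 81% and 88.1% with size factors, where the members counted 43 and 0, 39 and 1, 15 and 1, and 7 and 1. At day 28 the count was 35 and 1 with a pseudocount of 0.1 TPM (31.7% of all genes higher), and 17 in all when grafted injured replicate 1 was left out. Tpx2 was lower from day 7 (-1.09, -1.39 and -1.46) and did not differ at day 3 beyond its error (-0.05 ± 0.272).

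Set directly against injury without repair, grafted muscle had slightly higher values of nearly every member, and no member was called at any day by limma (0.00883%, 0.0883%, 0.0265% and 0.0% of all genes called in either direction). All 47 members had a positive difference at days 3, 7 and 28 and 44 had one at day 14, with medians of 0.46, 0.56, 0.135 and 0.14 against 0.14, 0.11, 0.12 and 0.075 for all genes. The typical gene was thus above 0 too, and the share of all genes with a positive difference is not given here. With size factors the members' medians were 0.32, 0.46, 0.053 and 0.079, against 0.014, 0.018, 0.017 and 0.009 for all genes. The largest at day 3 were Mcm5 (0.64), Mybl2 (0.605) and Mki67 (0.60), and the smallest were Aurka (0.12), Mcm7 (0.335) and Pcna (0.35). Later the range was from Tpx2 (-0.19) to Cdca3 (0.25) at day 14 and from Cdc6 (0.02) to Tpx2 (0.68 ± 0.24, limma adjusted p = 0.999) at day 28. At an unadjusted p under 0.05, 37 members were higher at day 3, 45 at day 7 and 1 at day 28, beside 15.6%, 26.6% and 1.09% of all genes, and 0 differed in either direction at day 14 (5.23%). The groups did not overlap for 16 members at day 3, as for 5.22% of all genes.

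At day 7 the difference was larger than the error of the fit for most members and smaller than the fold limit. That error is shared over all 31 groups, which differed in spread. The SD of the member mean in log2(TPM + 1) was 0.387 without repair and 0.297 with graft. It was 0.089 and 0.029 in their contralateral muscles and 0.41 and 0.44 in the running injured muscles. An adjusted p under 0.05 at any fold, a criterion added after the values were seen, was met by 41 of 47 members (8.15% of all genes, higher). Rrm2 differed the most (0.77 ± 0.182, limma adjusted p = 0.00566), followed by Cdk1 (0.75 ± 0.187, adjusted p = 0.00768) and Birc5 (0.74 ± 0.18, adjusted p = 0.00674), and Mki67 had 0.65 ± 0.142. Aurka (0.02), Mcm7 (0.18) and Pcna (0.20) differed the least. The muscles overlapped all the same, with Rrm2 at 7.28 to 21.52 TPM without repair and 13.68 to 43.47 TPM with graft, and Mki67 at 3.44 to 7.92 TPM and 6.79 to 10.95 TPM. The member mean in log2(TPM + 1) was 2.532, 2.573 and 2.636 in replicates 8, 7 and 6 without repair and 3.175 to 3.454 in the other 5, against 3.104 to 4.092 with graft. The count was 0 when the fit used the compared groups alone, 29 with size factors, and 18 and 21 when replicates 8 and 7 without repair were left out. With the libraries of low complexity kept it was 42, and 6 members then passed the fold limit as well. Macrophage markers moved the same way, with 576.4 to 2766 TPM without repair and 1897 to 4056 TPM with graft, and their part was not tested.

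Whether the gap between injured and contralateral muscle itself differed with graft was tested as an interaction. With limma 0 members were called at any day, as were 0.0% of all genes. At an unadjusted p under 0.05, 14, 26, 0 and 1 members had the larger gap with graft at the 4 days, beside 1.77%, 3.97%, 0.68% and 0.494% of all genes. The largest were Ccna2 at day 3 (1.02 ± 0.382, adjusted p = 1.0) and Rrm2 at day 7 (0.73 ± 0.297, adjusted p = 0.416), and Aurka was the lowest at both days (-0.07 and -0.44).

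**Figure D5:**
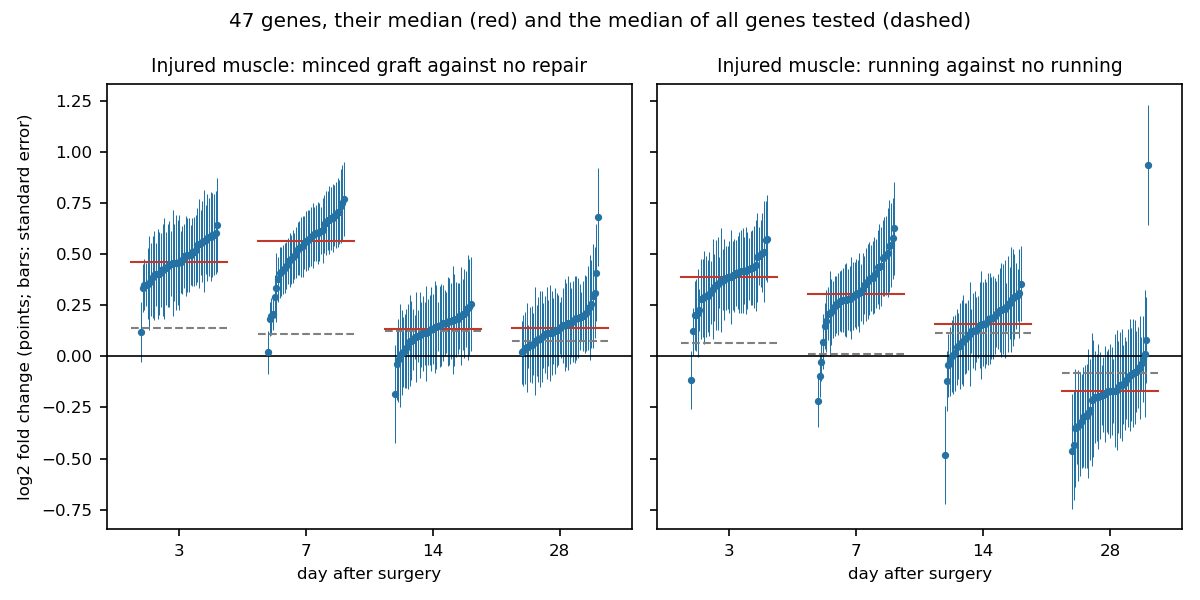
Log2 fold change of each of the 47 genes (points, standard error) in injured muscle, for minced graft against no repair (left) and running against no running (right) by day, with the median of the 47 (red) and of all genes tested (dashed). For graft the red line is at 0.46 and 0.56 at days 3 and 7 and near the dashed line later; for running it goes from 0.39 at day 3 to -0.17 at day 28.

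Running was compared with no running in injured muscle without repair. With limma 0 members were called at any day (0.0441%, 0.0%, 0.0177% and 0.0177% of all genes in either direction). The medians were 0.39, 0.305, 0.16 and -0.17 (0.065, 0.01, 0.115 and -0.08 for all genes), and at an unadjusted p under 0.05, 29, 19, 2 and 1 members were higher (9.79%, 11.2%, 9.43% and 0.512% of all genes). The largest values were Ccna2 (0.575), Mki67 (0.57) and Rrm2 (0.51) at day 3, Cdk1 (0.63 ± 0.229, adjusted p = 0.143), Cdca3 (0.58) and Ccnb2 (0.54) at day 7 and Gmnn (0.355) at day 14, and Aurka was below 0 at every day. At day 7 the 4 running muscles had member means of 2.943 to 3.904 in log2(TPM + 1), above the 3 low muscles without running named for the graft comparison and overlapping with the other 5. Mki67 measured 17.12, 17.43 and 20.05 TPM without running at day 3 and 18.59 to 37.43 TPM with running (median 28.28), which overlapped. At day 28, with 2 running muscles, 44 members were lower, 17 of them without overlap (19% of all genes), led by Cdca3 (-0.465) and Cdc20 (-0.435), and Tpx2 stood apart with 0.94 ± 0.294 (11.15 and 12.27 TPM against 3.95 to 8.57 TPM, adjusted p = 0.463). The median of all genes was below 0 as well. The 8 fast fibre markers summed to 144300 to 148700 TPM with running and 116900 to 142100 TPM without, and the part of the fibres was not tested.

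Other genes of the cell cycle were read from lists that hold none of the members. Of 20 further S phase genes all rose against control at day 3, 14 at day 7 and 2 at days 14 and 28, beside 48.3%, 45.6%, 25% and 21.1% of all genes, so that the share was below that of all genes at the 2 later days. The smallest rises at day 3 were those of Rfc4, a clamp loader subunit (1.09 ± 0.14), and Pole, a replicative polymerase (1.06 ± 0.119). Of 25 further G2 and M phase genes 24 rose at day 3, 22 at day 7, 9 at day 14 and 1 at day 28. Cks2, a partner of Cdk1, and Pttg1, the securin, led with 5.17 and 4.72 at day 3, and Cks2 was the one still called at day 28 (1.37 ± 0.281, limma adjusted p = 1.42e-05), and Espl1, the protease that cuts cohesin, was at the other end with 0.16 at day 3 and -0.625 at day 28. Prim1, the primase subunit, was among the S phase genes called at day 28 (1.34 ± 0.175).

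Of 18 G1 cyclins, kinases and inhibitors, 15 rose at days 3 and 7, 12 at day 14 and 8 at day 28, beside the same shares of all genes. No test of a difference from the division genes was made. Cdkn1a, the p21 inhibitor of cyclin-dependent kinases, was the highest at each day. It measured 2.79, 3.54, 4.71 and 6.76 TPM in control, 300.6, 312.0 and 348.0 TPM at day 3, 242.7 to 691.0 TPM at day 7 (median 540.6), 220.0, 256.6, 349.1 and 420.0 TPM at day 14 and 207.9, 263.9, 337.5 and 429.1 TPM at day 28. No injured muscle came near the control range, and the log2 fold changes of Cdkn1a were 5.93 ± 0.357, 6.58 ± 0.287, 5.85 ± 0.331 and 5.83 ± 0.331. Over the same days Cdk1 went from 5.72 to 1.48. Cdkn1c, a related inhibitor, was second (3.62 at day 3 and 3.51 at day 28). Rbl2, a pocket protein of resting cells, was the lowest at each day, between -0.13 and 0.29, and was not called.

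Of the 9 genes of the stress and quiescence list, 6 rose and 1 fell at day 3, 5 rose at day 7 and 3 each at days 14 and 28, near the shares of all genes given above. Gadd45a, induced by DNA damage, was the highest, followed at days 3 and 28 by Bax, which opens the mitochondrial membrane (3.14 and 1.45). Gadd45a had means of 21.31 TPM in control and 546.8, 669.8, 213.9 and 224.2 TPM at the 4 days (4.68 ± 0.447, 4.82 ± 0.358, 3.34 ± 0.413 and 3.40 ± 0.413). Ccng1, a target of the same response, fell at day 3 by 1.24 on the log2 scale, from 803.1 to 1076 TPM in control to 317.2, 463.9 and 475.2 TPM, and measured 878.4 to 999.5 TPM at day 28.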

How the data were processed

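Injured, contralateral and control tibialis anterior muscles were measured by RNA-seq. The authors pseudo-aligned the reads to the Genbank-annotated rat genome, build 6.0, with kallisto, and deposited 1 table of TPM values per gene. Depth, counts and transcript models were not used here. The table ended in 1 incomplete row of 16182, which was left out.

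Libraries with fewer than 7000 symbols above 1 TPM were dropped, as low complexity, and libraries of 1 muscle were averaged. Genes with a mean above 1 TPM in at least 1 group were tested (11328). One limma model (version 3.58.1, R 4.3.3) of log2(TPM + 1) with a mean for each of 31 groups, 83 residual degrees of freedom and an intensity trend gave all comparisons, with Benjamini-Hochberg adjustment over all genes. The study tested gene counts, which a TPM table does not allow. The fit was tested on simulated data. Samples follow the labels. Separate muscles of 1 group came from different rats, except the 4 control muscles of 2 rats.

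The members and lists were chosen with earlier results of these data known. Every member could be named. Values of single muscles or ranges of groups were given for a fixed set of 14 genes, not in every group, and for some members with the largest and smallest changes. List genes were named by the largest and smallest changes, and Mcm3, Mcm4, Mcm6, Mcm7, Ptprc and Prim1 were named after their values were seen. Single values of some list genes are not reported here.

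Rat identity gave 34 pairs of an injured and a contralateral muscle of 1 rat, running rats included. Their deviations from the group means had a mean correlation of 0.0944 (-0.0679 to 0.358, above 0.1 in 15 pairs) against -0.0002 between rats. Alternatives were a pseudocount of 0.1 TPM, no filter on low values, median-of-ratios size factors, all libraries kept, the compared groups alone, groups without running alone, each library as its own sample, controls averaged per rat, rat as a random block (statmod 1.5.0) and each of 86 muscles left out. Promoters came from RefSeq (GRCr8), and figures from matplotlib 3.10.9.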

Additional observations from a re-analysis of the deposited data

Results flagged for a closer look

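Of 240 tests for a single muscle standing apart from its group, made over 14 genes and the member mean, 6 were positive, and chance alone flags about 1 in 20 groups. In grafted injured muscle at day 3, replicate 1 had Mki67 at 50.02 TPM and Top2a at 50.9 TPM, where the next muscles had 30.86 and 33.33 TPM. E2f1 was 10.56 TPM in replicate 3 of grafted injured muscle at day 7 (next 7.23 TPM) and 7.34 TPM in replicate 3 of injured running muscle without repair at day 7 (next 5.34 TPM). Cdkn1a was 797.8 TPM in replicate 5 of grafted injured muscle at day 7 (next 574.5 TPM). Control replicate 4 had a member mean of 0.7665 in log2(TPM + 1), below the next control at 1.022; it also had 5 members at 0 TPM and the fewest symbols above 1 TPM of the libraries kept, 7866. Without this control muscle, 45, 26 and 6 members were called in injured muscle against control at days 3, 14 and 28.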

How the results depend on the processing

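Over 32 counts of called members and 503 alternatives, 467 counts were within 1.5 times the main one. The pseudocount moved the most: with 0.1 TPM, which gives weight to values near 0, the counts were 13, 2 and 18 for contralateral against control at days 3, 7 and 14, 35 and 32 for injured against contralateral at days 14 and 28, 36 for injured against control at day 28, 36 for grafted against contralateral at day 28, and 14 for day 28 against day 14. Size factors gave 7 for injured against contralateral at day 14, 16 for grafted against contralateral at day 14 and 4 for day 14 against day 7. With all libraries kept, the counts were 4 and 0 for contralateral against control at days 7 and 14, 3 for day 14 against day 7, 0 for day 28 against day 14 and 6 for graft against no repair at day 7, by adjusted p and fold. The single call in contralateral muscle at day 14 was 0 without a filter on low values, with the compared groups alone and with controls averaged per rat. The 41 members past the adjusted p alone for graft at day 7 were 0 with the compared groups alone. The cause was not tested. Fitting fewer groups leaves fewer residual degrees of freedom, and the groups of the graft comparison at day 7 had a larger spread than their contralateral muscles.

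Leaving out 1 muscle gave 0 to 1 members for contralateral against control at day 14, 8 to 17 for grafted against contralateral at day 28 (17 without grafted injured replicate 1), 0 to 2 for day 28 against day 14, and 18 to 43 for graft at day 7 by the adjusted p alone (18 and 21 without injured replicates 8 and 7). Pairing by rat, as a replicate block with a within-rat correlation of 0.026, changed no count by over 1.5 times, with 46, 43, 27 and 9 members against control. Of 2480 single-gene values under alternatives, 0 changed direction and 59 lost a call, 19 of them with size factors, 8 with all libraries kept and 29 when a muscle was left out. Aurka against control at day 7, which was not called and not among these, went from 0.67 to -0.09 with size factors. Groups of 2 to 4 muscles limit the precision at days 3, 14 and 28.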

Other observations

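A total of 9 libraries entered no comparison because their labels contradicted each other, and their summed member levels are given as values. In the running rats at day 28, 4 libraries with a control side in the title had 162.0 to 191.7 TPM (median 183.8) and 4 with an injured side in the title had 129.4 to 166.6 TPM (median 148.5). A contralateral library with 2 different days in its labels had 170.6 TPM.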
